A study of Mus musculus with 6 samples.

Results

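A set of 9 genes of fat-cell formation and lipid storage was followed in mouse embryonic fibroblasts as the cells were passaged. They were chosen by gene symbol: the regulator Pparg, the triglyceride synthesis gene Lpin1, the fatty acid uptake and binding genes Lpl, Cd36 and Fabp4, the lipid droplet genes Plin2 and Plin1, and the secreted factors Adipoq and Cfd. These are 9 of the 21988 gene symbols in the table. The fibroblasts were taken from C57BL/6 embryos at day 13.5 of pregnancy, grown in medium with 10% fetal bovine serum and harvested at population doubling (PD, the summed log2 growth of the culture) 2, 8 or 14. All cells were untreated and of the same strain, no fat-inducing treatment is named in the labels, and by the labels the groups PD2, PD8 and PD14 differ only in how long the cells were passaged. Each group had 2 libraries, replicate 1 an rRNA-depleted total RNA library and replicate 2 a poly(A)-selected one, so replicate and library method cannot be told apart. The labels do not say whether the libraries came from separate cultures or how many embryos were used. With a level fitted for each library method, p-values rest on how far the 2 methods disagree on the changes between groups. That disagreement comes from these 6 libraries alone and may be technical.

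PPARG is a nuclear receptor that pairs with the retinoid X receptor RXR and switches on the fat-cell program. Its known targets include the genes of the lipase LPL, the fatty acid transporter CD36, the fatty acid carrier FABP4 and the droplet coat proteins of the perilipin family. Fibroblasts of the embryo contain cells that can be driven into fat cells by hormones in culture. ADIPOQ (adiponectin), CFD (adipsin, a complement protease) and PLIN1 are made mainly by mature fat cells, while PLIN2 coats droplets in most cell types.

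Pparg has several annotated starts. Values were deposited per gene symbol, so the starts cannot be told apart in them. The 3 RefSeq start windows of Pparg are printed because the most downstream one starts the fat-cell isoform. Each window runs from 250 bases before to 50 bases after an annotated start on the plus strand of GRCm38.p6. Capitals mark the nuclear receptor hexamer AGGTCA or the C/EBP element TTGCNNAA, found on either strand.
Pparg, upstream start, chr6:115360894-115361193: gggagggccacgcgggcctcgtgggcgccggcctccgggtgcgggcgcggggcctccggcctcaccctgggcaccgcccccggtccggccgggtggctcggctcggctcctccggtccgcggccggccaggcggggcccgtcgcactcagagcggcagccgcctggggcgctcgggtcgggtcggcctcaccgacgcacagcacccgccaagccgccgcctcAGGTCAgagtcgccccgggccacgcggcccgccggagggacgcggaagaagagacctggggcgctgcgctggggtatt
Pparg, middle start, chr6:115362099-115362398: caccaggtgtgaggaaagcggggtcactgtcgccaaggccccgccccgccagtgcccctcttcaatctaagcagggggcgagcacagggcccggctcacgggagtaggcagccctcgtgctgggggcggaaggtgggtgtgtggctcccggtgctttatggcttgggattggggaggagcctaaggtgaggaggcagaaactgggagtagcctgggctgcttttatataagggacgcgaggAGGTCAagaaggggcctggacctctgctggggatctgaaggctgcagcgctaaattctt
Pparg, downstream start, chr6:115421816-115422115: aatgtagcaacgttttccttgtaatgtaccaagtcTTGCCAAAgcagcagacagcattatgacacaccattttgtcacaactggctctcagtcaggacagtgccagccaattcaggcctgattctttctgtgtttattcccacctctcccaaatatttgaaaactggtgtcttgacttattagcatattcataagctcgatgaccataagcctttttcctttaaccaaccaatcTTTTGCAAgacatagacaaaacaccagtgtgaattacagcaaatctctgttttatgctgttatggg
The G and C content was 80.3% in the upstream window, 62.7% in the middle window and 40.3% in the downstream window. The hexamer was in the upstream window, 28 bases before the start, and in the middle window, 9 bases before it. The downstream window held 2 matches to the C/EBP element, at 215 and 16 bases before the start. Of all 32851 RefSeq windows of this length, 16.3% held the hexamer and 10.8% the C/EBP element. The RefSeq table held 9 windows for 7 of the genes, all but Fabp4 and Lpl. The full PPAR element, AGGTCANAGGTCA on either strand, which contains the hexamer as a repeat, was in 0 of these 9 windows and in 0.0396% of all windows. The hexamer was also in the windows of Plin2, Lpin1 and Cd36, and the C/EBP element in that of Plin1.

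Of the 9 genes, 6 reached 1 TPM (a transcript level per 1000000 transcripts, scaled for gene length and library) in at least 2 libraries and were tested. Adipoq was listed at 0.834 TPM in the PD2 poly(A) library, 0.155 in the PD14 rRNA-depleted library and 0 in the other 4. Plin1 was listed at 0.0989 TPM in the PD2 poly(A) library, 0.0863 in the PD14 rRNA-depleted library and 0 in the other 4. Cfd was at 0.0753 TPM in the PD2 poly(A) library and at 0 in the other 5. The 3 genes most specific to mature fat cells were therefore at or near 0 in every library, and no fold change was formed for them. Of 27 other mature fat-cell genes on a separate list, 14 were below the filter, beside 39.4% of all gene symbols. Among them were the hormone genes Lep and Retn and the droplet genes Cidec and Cidea, whose highest values were 0.0213, 0.205, 0.266 and 0.608 TPM. The other 13 passed the filter, and the whole list summed to between 81.4 and 128 TPM a library, with Apmap, an adipocyte plasma membrane protein gene, at 19.1 to 26.5 TPM, Nnat at 1.09 to 26.6 TPM, Sncg at 7.39 to 23.3 TPM and Plin4 at 0.948 to 35.0 TPM. The 9 genes together took between 0.0168% and 0.0374% of the TPM of a library. Of the markers of the labelled cell type, fibroblasts, 15 of 15 were at 1 TPM or more in every library, with summed levels of 19400 to 37798 TPM. That level alone does not set a cell type apart, as 8 to 19 of 20 macrophage and leukocyte markers reached it too.

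Plin2 had the highest level of the 9 genes in all 6 libraries and Fabp4 the second highest. Over the libraries, mean TPM were 159.6 for Plin2, 48.2 for Fabp4, 24.9 for Lpin1, 17.9 for Lpl, 9.23 for Pparg and 6.47 for Cd36. The means exceeded those of 92.6% of tested genes for Plin2, 70.1% for Fabp4, 49.9% for Lpin1, 40.9% for Lpl, 26.2% for Pparg and 20.8% for Cd36. Below Fabp4 the order was not stable. Lpl was above Lpin1 in both PD2 libraries, and below it in both PD8 libraries and in the PD14 poly(A) library. Pparg was the lowest of the 6 in every poly(A) library, and Cd36 the lowest in every rRNA-depleted one.

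**Figure D1:**
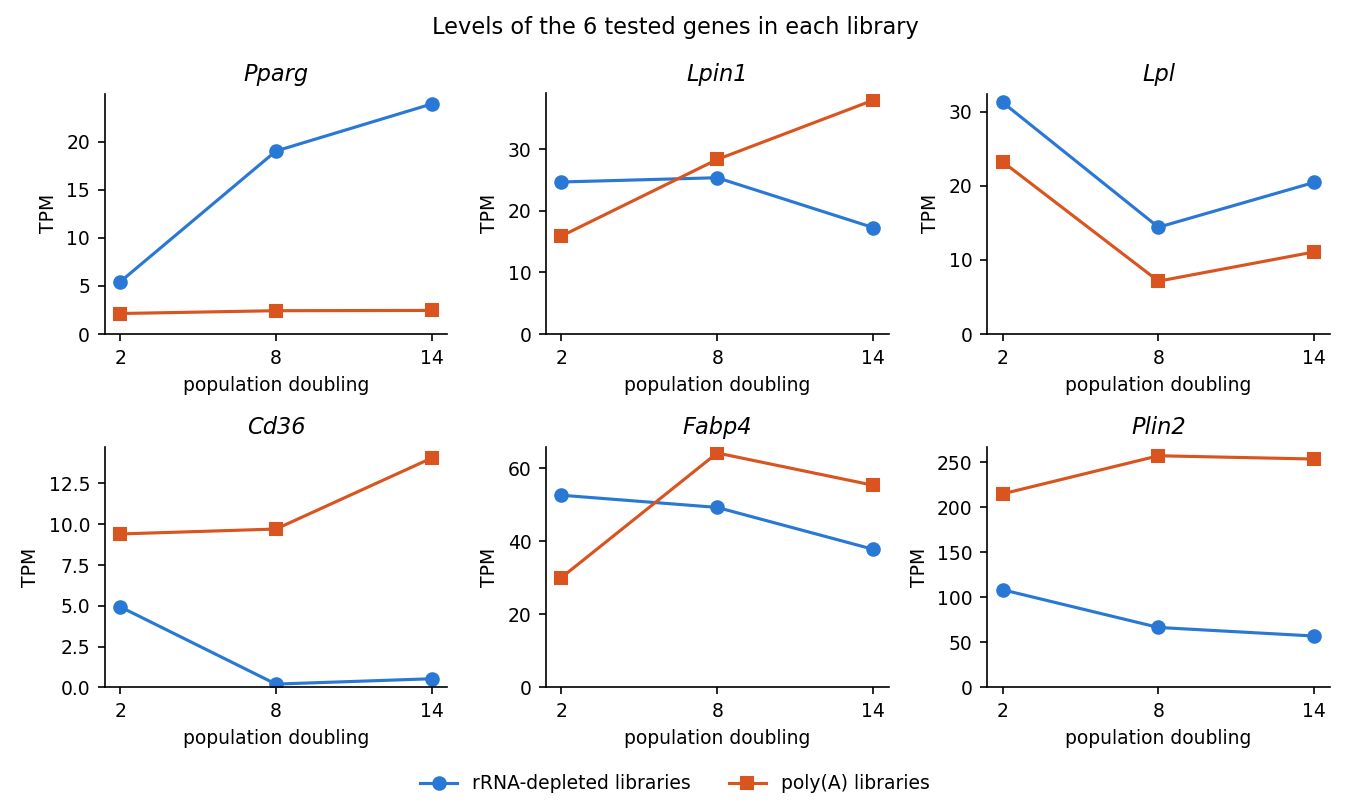
TPM (vertical axes, from 0) of the 6 tested genes against population doubling (horizontal axes), 1 point per library, circles for rRNA-depleted and squares for poly(A) libraries. Lpl goes down and then partly up in both methods, while Pparg climbs from 5.44 to 23.9 TPM with rRNA depletion and stays between 2.14 and 2.46 TPM in the poly(A) libraries.

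None of the 6 tested genes passed the threshold in any comparison of passage. Values were compared as log2(TPM + 1) with limma, with library method as a block and Benjamini-Hochberg adjustment over 13332 genes. In PD14 against PD2, 0 of 6 were called, where 11.2% of all tested genes were. In PD8 against PD2, 0 of 6 were called, where 0.0225% of all genes were. Those were 3 genes, named because they are so few: C3, C1s1 and Rspo2. In PD14 against PD8, and in the test of whether the late step (PD8 to PD14) differed from the early step (PD2 to PD8), 0 of 6 were called, and 0% of all genes. An F test over the 3 groups called 0 of 6, and 1.46% of all genes. In each of these limma tests 1 of the 6, always Lpl, had an unadjusted p under 0.05, as had 32% of all tested genes in PD14 against PD2, 20.3% in PD8 against PD2, 5.6% in PD14 against PD8, 4.25% in the test of the steps and 24.2% in the F test. Median fitted changes of the 6 genes were -0.07 in PD14 against PD2, 0.10 in PD8 against PD2 and 0.05 in PD14 against PD8, beside 0.06, 0.04 and 0.01 over all tested genes. Without the method as a block, 0 of all genes and 0 of the 6 were called in PD14 against PD2.

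The library methods often disagreed on direction. In PD14 against PD2, only Pparg and Lpl, 2 of 6, had the same sign in both methods, where 69.6% of all tested genes did. In PD8 against PD2 it was 3 of 6 beside 69.4%, and in PD14 against PD8 5 of 6 beside 52.7%. Libraries of PD14 and PD2 did not overlap for 1 of 6, Lpl, where 38.2% of all genes did not overlap. Between PD8 and PD2 there was no overlap for Lpl and Lpin1, 2 of 6, beside 33.1% of all genes. Between PD14 and PD8 all 6 overlapped, where 15.2% of all genes did not.

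**Figure D2:**
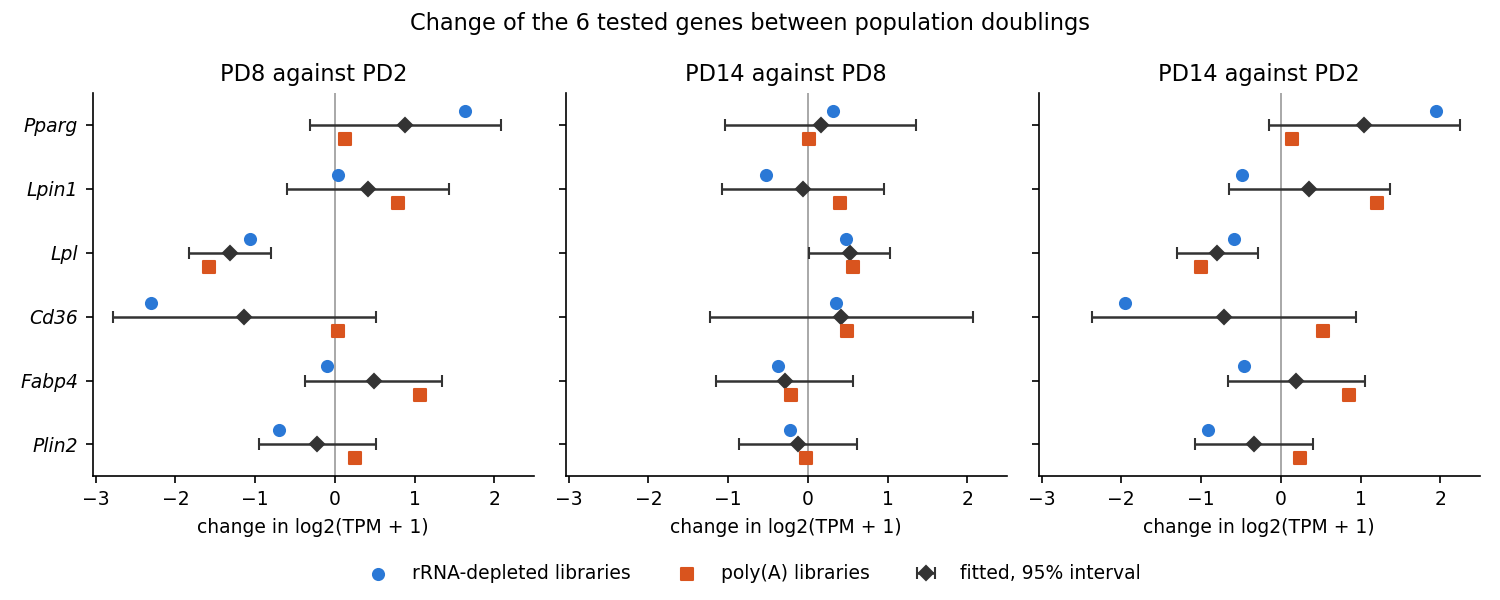
Change in log2(TPM + 1) (horizontal axes) of the 6 tested genes in the 3 comparisons of passage: diamonds are fitted changes with 95% intervals, circles and squares the change between 1 library and 1 library in each method. In PD14 against PD2 the interval of Lpl, from -1.31 to -0.28, lies below 0, while the methods stand on opposite sides of 0 for Lpin1, Cd36, Fabp4 and Plin2.

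Pparg (chromosome 6, 115360951 to 115490399 on mm10, plus strand; GENCODE M21) is the regulator of the group. Its level in rRNA-depleted RNA was 5.44 TPM at PD2, 19.0 at PD8 and 23.9 at PD14. In poly(A) RNA the levels were 2.14, 2.43 and 2.46 TPM. The rRNA-depleted library of PD14 was thus 4.40-fold above that of PD2, and the poly(A) library 1.15-fold. Each rRNA-depleted library was above its poly(A) partner, by 2.55-fold at PD2, 7.83-fold at PD8 and 9.73-fold at PD14, and the groups overlapped. The fitted change from PD2 to PD14 on the log2(TPM + 1) scale was 1.05 ± 0.47 (SE, n = 2 libraries per group), with a 95% interval from -0.15 to 2.24 (limma, adjusted p = 0.199). The changes in the separate methods, 1.95 and 0.14, differed by 1.81, more than the methods differed for 96.05% of tested genes. With all 6 libraries its adjusted p in limma ran from 0.195 to 0.838 over the settings. Without the PD2 poly(A) library the change was 1.88, but PD2 then has 1 library assumed to vary like the other groups. Such a fit takes its error from PD8 and PD14 alone, so no p-value is given for it. Without the PD2 rRNA-depleted library the change was 0.22. The antisense gene Gm44079 lies within the Pparg locus and shares no exonic base with it.

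Lpin1 (chromosome 12, 16535669 to 16610966, minus strand) encodes lipin, which turns phosphatidic acid into the diacylglycerol from which triglyceride is built. Levels in rRNA-depleted RNA were 24.7, 25.4 and 17.3 TPM in order of passage, and with poly(A) selection 15.9, 28.4 and 37.96 TPM. Both PD8 libraries were above both PD2 libraries, but PD14 held the lowest rRNA-depleted and the highest poly(A) value. From PD2 to PD14 the fitted change was 0.36 ± 0.40 (95% interval from -0.66 to 1.37; limma, adjusted p = 0.575), made of -0.49 with rRNA depletion and 1.203 with poly(A) selection. From PD2 to PD8 it was 0.42 ± 0.40 (adjusted p = 0.594).

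Lpl (chromosome 8, 68880491 to 68907448, plus strand) encodes lipoprotein lipase, which frees fatty acids from lipoprotein triglyceride outside the cell. In rRNA-depleted RNA its levels were 31.2, 14.4 and 20.5 TPM in order of passage, and with poly(A) selection 23.2, 7.14 and 11.1 TPM. Both PD2 libraries were above all 4 later libraries, and in each method PD8 was the lowest and PD14 lay between. From PD2 to PD8 Lpl was 2.17-fold lower by rRNA depletion and 3.25-fold lower by poly(A) selection, and from PD8 to PD14 it was 1.42-fold and 1.55-fold higher. The fitted changes were -1.32 ± 0.20 for PD8 against PD2 (95% interval from -1.83 to -0.81; limma, adjusted p = 0.0849), 0.52 ± 0.20 for PD14 against PD8 (0.01 to 1.04; adjusted p = 0.892) and -0.80 ± 0.20 for PD14 against PD2 (-1.31 to -0.28; adjusted p = 0.0657). The late step minus the early step was 1.84 ± 0.35 (95% interval from 0.96 to 2.73; unadjusted p = 0.00287, adjusted p = 1 in limma), the 25th smallest unadjusted p of the 13332. The direction of Lpl in each of the 3 comparisons was kept under all the settings tried and without each library. Some of these cannot move a fitted change, such as dropping the method block or a library of the group outside the comparison. Without the PD2 rRNA-depleted library the fitted change in PD8 against PD2 was -1.55. With all 6 libraries the adjusted p of Lpl in that comparison ran from 0.0829 to 0.925 in limma over the settings. In PD14 against PD2 it ran from 0.0502 to 0.601. These are bulk libraries, in which fewer cells with Lpl and less Lpl RNA per cell cannot be told apart.

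Cd36 (chromosome 5, 17781690 to 17888801, minus strand) encodes a scavenger receptor that takes up fatty acids, in macrophages and endothelium as well as in fat cells. With rRNA depletion its levels were 4.93, 0.198 and 0.527 TPM in order of passage, and with poly(A) selection 9.40, 9.71 and 14.1 TPM. The PD8 and PD14 rRNA-depleted libraries were the only ones below 1 TPM, 24.9-fold and 9.37-fold below the PD2 library of that method. The PD14 poly(A) library was 1.495-fold above its PD2 partner. The fitted change from PD2 to PD14 was -0.71 ± 0.65 (95% interval from -2.36 to 0.94; limma, adjusted p = 0.491). The methods gave -1.96 and 0.53, a gap larger than that of 98.4% of tested genes. From PD2 to PD8 the fitted change was -1.13 ± 0.65 (adjusted p = 0.387). Without the PD2 poly(A) library the change of Cd36 was -1.92 in PD14 against PD2 and -2.34 in PD8 against PD2. Without the PD2 rRNA-depleted library the values were 0.50 and 0.08. Either omission leaves the error to PD8 and PD14 alone, so no p-value is given for it. With all 6 libraries its adjusted p in limma was at least 0.442 and 0.335 in these comparisons under every setting.

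From PD2 to PD14, 69.6% of all tested genes had the same sign in both methods, and the share with each opposite split was not counted. Of 19 tested macrophage and leukocyte markers, 14 were, like Cd36, lower in the rRNA-depleted and higher in the poly(A) libraries. Another 4 (C1qa, C1qb, C1qc and Mrc1) were lower in both and 1 (Cd14) was higher in both. The summed level of 20 such markers was 186 TPM at PD2, 35.5 at PD8 and 49.0 at PD14 after rRNA depletion, against 464, 829 and 802 TPM after poly(A) selection. In the rRNA-depleted libraries 17, 8 and 12 of the 20 were at 1 TPM or more, and in the poly(A) libraries 19, 18 and 18. The lysozyme gene Lyz2 was the most abundant, at 98.5, 15.1 and 21.7 TPM against 337, 621 and 569 TPM. Without Lyz2 the sums were 87.4, 20.4 and 27.3 TPM against 127, 208 and 233 TPM. In limma 0 of the 19 tested markers passed in PD14 against PD2, with 5 at an unadjusted p under 0.05 (the 5 with the same sign in both methods), beside 32% of all tested genes, and their median change was -1.19 by rRNA depletion and 0.62 by poly(A) selection. At 0 was 1 of the 20, Spi1, in the PD14 rRNA-depleted library. Endothelial markers summed to between 60.8 and 137 TPM, with 3 to 7 of 16 at 0, and muscle markers to between 13.4 and 144.5 TPM, with 2 to 9 of 19 at 0. Of 9 tested endothelial markers 2, Kdr and Flt1, fell from PD2 to PD14, by 1.38 and 0.75, and of 9 tested muscle markers 4, Des, Acta1, Myh3 and Tnnt3, fell, beside 4.77% of all tested genes. The part of these cell types in the values of Cd36, Lpl, Fabp4 and Plin2, which they also express, was not tested.

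**Figure D3:**
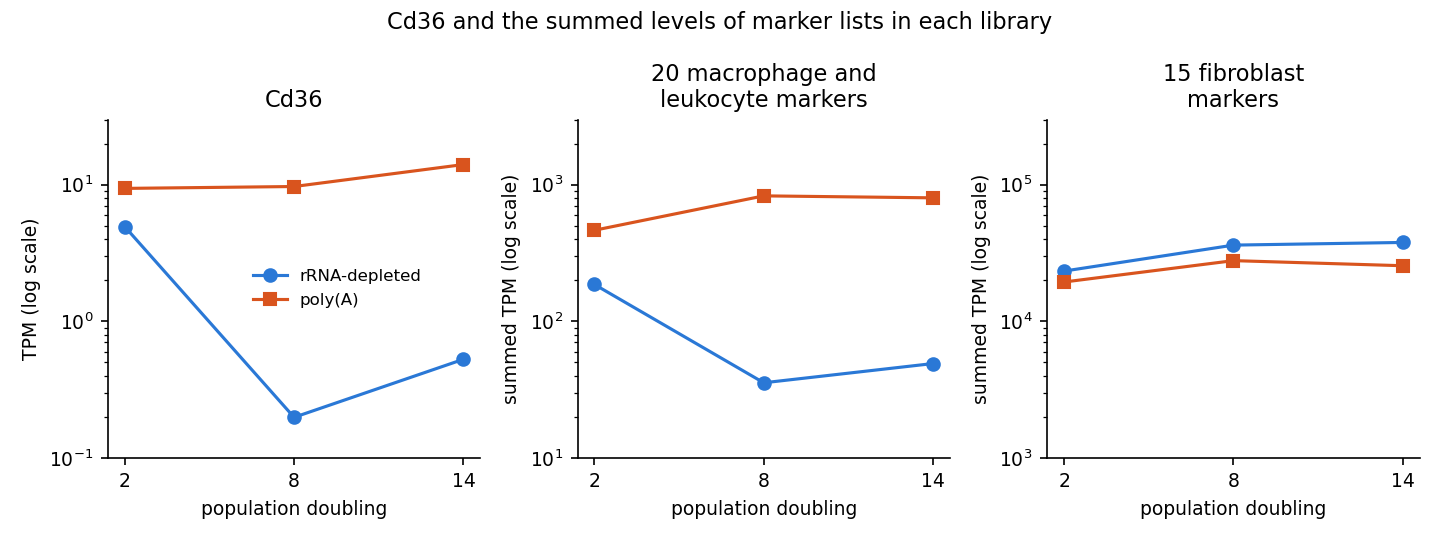
Cd36 level and summed level of the macrophage and fibroblast marker lists (TPM, log scales that span a different range in each panel) against population doubling, 1 point per library, circles for rRNA-depleted and squares for poly(A) libraries. Cd36 and the macrophage markers are lower at PD8 and PD14 than at PD2 in the rRNA-depleted libraries and higher in the poly(A) libraries, while the fibroblast markers are higher in both.

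Fabp4 (chromosome 3, 10204088 to 10208576, minus strand) encodes the fatty acid binding protein of fat cells, also made in macrophages and endothelium. Levels after rRNA depletion were 52.6, 49.3 and 37.8 TPM in order of passage, and with poly(A) selection 30.1, 64.2 and 55.3 TPM. The groups overlapped in every comparison. The fitted change from PD2 to PD14 was 0.20 ± 0.34 (95% interval from -0.66 to 1.06; limma, adjusted p = 0.722), from -0.47 with rRNA depletion and 0.86 with poly(A) selection. From PD2 to PD8 it was 0.49 ± 0.34 (adjusted p = 0.465). Without the PD2 rRNA-depleted library the changes to PD14 and to PD8 were 0.82 and 1.11, and without the PD2 poly(A) library they were -0.42 and -0.13. Either omission leaves the error to PD8 and PD14 alone, so no p-value is given for it. With all 6 libraries adjusted p in limma was at least 0.72 and 0.463 under every setting.

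Plin2 (chromosome 4, 86648386 to 86670060, minus strand) encodes the droplet coat protein perilipin 2. By rRNA depletion the levels were 108.3, 66.5 and 57.0 TPM in order of passage, and with poly(A) selection 214.9, 257.2 and 253.5 TPM. Every poly(A) library was above every rRNA-depleted one, by 1.98-fold at PD2, 3.87-fold at PD8 and 4.45-fold at PD14 for partners of the same group. The fitted change from PD2 to PD14 was -0.34 ± 0.29 (95% interval from -1.08 to 0.40; limma, adjusted p = 0.464), from -0.92 with rRNA depletion and 0.24 with poly(A) selection. Without the PD2 poly(A) library the change of Plin2 was -0.87, and without the PD2 rRNA-depleted library it was 0.19. Either omission leaves the error to PD8 and PD14 alone, so no p-value is given for it. With all 6 libraries its adjusted p in limma was at least 0.411 under every setting.

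For each of the 6 genes the 3 tested genes with the most similar pattern were found by Pearson correlation over the 6 libraries, after each method's mean was taken off. With so few libraries between 220 and 563 genes reached a correlation of 0.9 with any member, so the names are a description. Nearest to Lpl were Pf4 (0.998), Fam178a (0.998) and Idh3g (0.991). Pf4, a platelet chemokine also made by macrophages, was at 2.09, 0.487 and 1.02 TPM with rRNA depletion. With poly(A) selection it was at 2.57, 0.3003 and 0.970 TPM. In the same order Fam178a was at 46.7, 40.5 and 42.6 TPM against 31.1, 25.5 and 27.2 TPM. Idh3g was at 48.1, 41.3 and 43.9 TPM against 79.5, 64.9 and 67.9 TPM. Nearest to Pparg were Mcoln3, Klhl15 and Tsc22d4 (0.996 to 0.998). Nearest to Cd36 were Gabpb1, Marcksl1 and the macrophage scavenger receptor gene Msr1 (0.991 to 0.996). Msr1 was at 2.83, 0.179 and 0.508 TPM with rRNA depletion and 3.02, 3.12 and 3.69 TPM with poly(A) selection. Nearest to Fabp4 were Tmem37, Ropn1l and Slc35d1 (0.991 to 0.996). Nearest to Plin2 were Dbn1, Hist1h4j and Dnm3 (0.996 to 0.998), and nearest to Lpin1 were Mreg, Kctd17 and Usp2 (0.997 to 0.998).

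Other genes of the pathway passed the test from PD2 to PD14. Of 182 genes on 10 lists of adipogenic and lipid genes, 151 were tested, and from PD2 to PD14 18 rose and 11 fell. That is 11.9% higher and 7.28% lower, beside 6.41% and 4.77% of all tested genes. The lists were chosen with earlier results of these data known, so these shares are a description only. From PD2 to PD8 only C3 passed (3.55 ± 0.21, adjusted p = 0.0411), and from PD8 to PD14 0 did in limma, with counts at an unadjusted p under 0.05 of 0 to 3 per list. The 29 calls kept their sign under all the settings tried and without each library, but the number called was 0 without the PD14 rRNA-depleted library, 1 without the PD14 poly(A) library, 2 or 1 without the rRNA-depleted or poly(A) library of PD8, and 36 without either PD2 library. It was also 0 without the method as a block. Leaving out the block or a PD8 library cannot move the fitted change from PD2 to PD14. The 29 were also picked by their p-values in these same data, so their kept sign is no separate support.

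**Figure D4:**
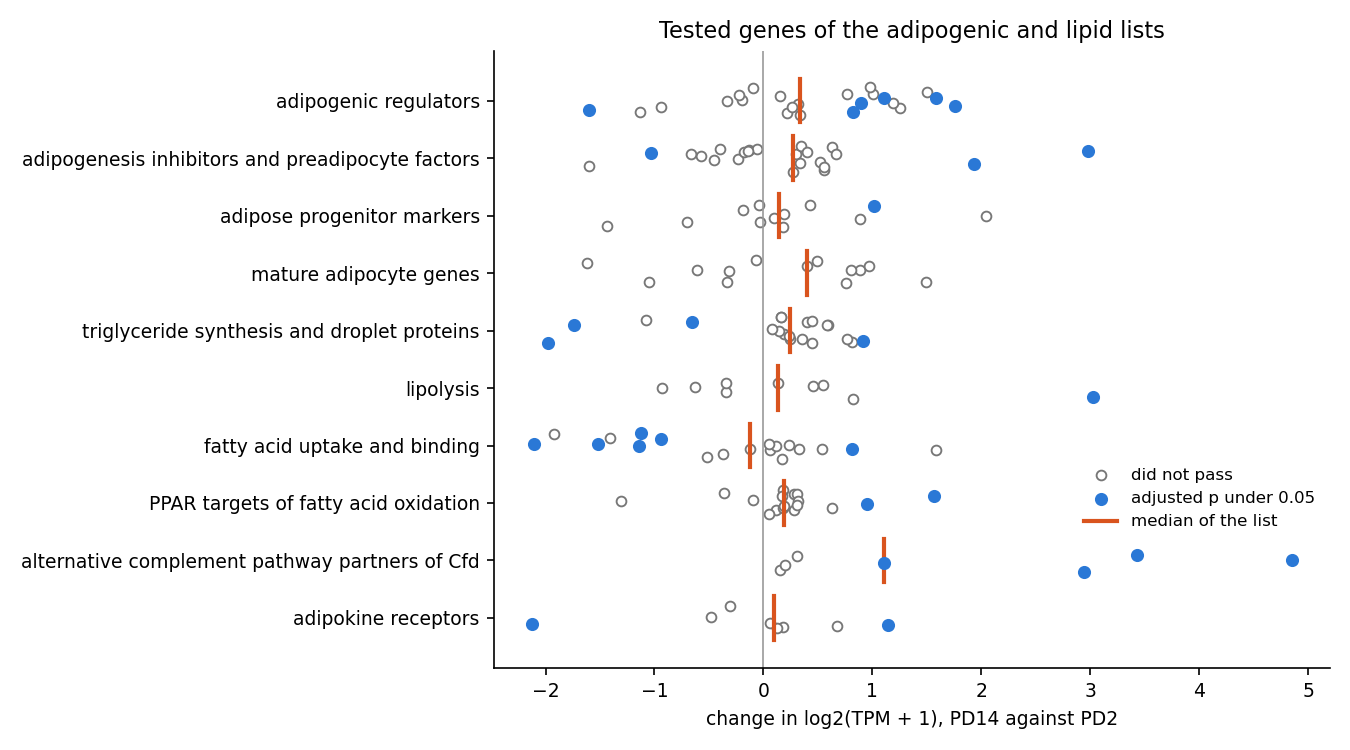
Fitted change in log2(TPM + 1) from PD2 to PD14 (horizontal axis) of each tested gene on the 10 lists (rows), filled where the adjusted p was under 0.05 and open otherwise, with the median of each list as a bar and points spread vertically only for sight. The mature fat-cell list has no filled point, the uptake and binding list has 5 filled points below 0 and 1 above, and C3 is the rightmost point at 4.85.

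Among regulators that act with or before PPARG, 5 of 23 rose and 1 fell from PD2 to PD14, with a list median of 0.34 beside 0.06 for all tested genes. Rxra, the receptor partner of PPARG, was at 50.3 and 28.2 TPM at PD2 and at 73.6 and 62.0 TPM at PD14, rRNA-depleted library first, a rise of 0.82 ± 0.17 (limma, adjusted p = 0.045). Ebf1, an early factor of the fat lineage, rose by 1.58 ± 0.28, the glucocorticoid receptor gene Nr3c1 by 0.89 ± 0.19, the signal transducer gene Stat5a by 1.10 ± 0.15 and Crebl2 by 1.76 ± 0.18. Klf5, a factor of early fat-cell formation, fell by 1.60 ± 0.22, from 16.1 to 5.41 and from 10.1 to 2.23 TPM. Of 23 inhibitors and preadipocyte factors 2 rose and 1 fell, with a median of 0.27. Wisp2, a secreted WNT-family inducible protein, went from 124 to 587 TPM with rRNA depletion and from 60.8 to 817 TPM with poly(A) selection (2.98 ± 0.35, adjusted p = 0.0203 in limma). The WNT antagonist gene Sfrp1 rose by 1.93 ± 0.19, and the pseudokinase gene Trib3 fell by 1.03 ± 0.20. Of 12 tested fat progenitor markers Cd34 rose, by 1.02 ± 0.22, and 0 fell, with a median of 0.14.

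Of the 13 tested mature fat-cell genes 0 passed in limma, with 4 at an unadjusted p under 0.05, beside 32% of all tested genes, and a median of 0.40. Plin4, a perilipin of fat and muscle named here after its values were seen, had a split like that of Pparg. It was at 7.95, 32.6 and 35.0 TPM with rRNA depletion and at 1.29, 1.62 and 0.948 TPM with poly(A) selection (0.89 ± 0.55, adjusted p = 0.322 in limma).

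In fatty acid uptake and binding 1 of 19 tested genes rose and 5 fell, with a median of -0.12. Fabp5, the epidermal relative of Fabp4, was at 226, 42.6 and 31.9 TPM with rRNA depletion and 293, 147 and 108 TPM with poly(A) selection, and fell from PD2 to PD14 by 2.11 ± 0.36 (limma, adjusted p = 0.0332). Fabp3, the carrier of heart and muscle, fell as well (adjusted p = 0.0432 in limma), 3.09-fold with rRNA depletion and 1.66-fold with poly(A) selection, and 9.84% of its exonic bases overlap Zcchc17 on the other strand. The fatty acyl-CoA synthetase genes Acsl3 and Acsl4 fell by 1.52 ± 0.20 and 1.12 ± 0.14. Slc27a1, a fatty acid transporter gene, rose by 0.81 ± 0.16. The FABP genes resemble each other in sequence, and how the authors' counting assigned reads shared by relatives is not given in the sources used here, which makes the values of Fabp3, Fabp4 and Fabp5 uncertain to that extent.

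In triglyceride synthesis and droplet proteins 1 of 20 tested genes rose and 3 fell, although the median was 0.24. The desaturase genes Scd1 and Scd2, which make monounsaturated fatty acids for storage, fell by 1.98 ± 0.13 and 1.73 ± 0.17 (limma, adjusted p = 0.0125 and 0.0168). Scd1 went from 259 to 61.8 TPM with rRNA depletion and from 258 to 68.3 TPM with poly(A) selection. Agpat1, an enzyme of phosphatidic acid synthesis, fell by 0.65 ± 0.14, and Bscl2, the gene of the droplet assembly protein seipin, rose by 0.91 ± 0.19. Of 9 tested lipolysis genes Npr3, the clearance receptor for natriuretic peptides, rose by 3.03 ± 0.57 and 0 fell, with a median of 0.13. Of 17 PPAR targets of fatty acid oxidation Pdk4, a kinase that restrains pyruvate oxidation, rose by 1.57 ± 0.26 and Acadvl, an acyl-CoA dehydrogenase, by 0.95 ± 0.14. None of that list fell, its median was 0.19, and 42.9% of the exonic bases of Acadvl overlap Dvl2 on the other strand, so its value is uncertain. Stat5a, Cd34, Agpat1, Bscl2, Scd2, Npr3, Acsl3 and Cd55 share from 1.01% to 6.75% of their exonic bases with a neighbour.

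Of 7 tested partners of adipsin in the alternative complement pathway, 4 rose, C3, Cfb and Cd55 among them, and 0 fell, with a median of 1.10. The other 3 did not pass: Cfp was at 0.15 ± 0.21, Cd46 at 0.31 ± 0.33 and Cr1l at 0.20 ± 0.15, and Cd46 and Cr1l had opposite signs in the 2 methods. Cfb, the protein that adipsin cuts, was at 1.21, 11.4 and 26.3 TPM with rRNA depletion and 2.19, 6.24 and 29.2 TPM with poly(A) selection (3.43 ± 0.35, adjusted p = 0.018 in limma). Of the exonic bases of Cfb, 79.5% are also in the overlapping gene model Gm20547, so its value is uncertain. Cd55, the gene of a membrane inhibitor of the pathway, rose by 1.10 ± 0.16. A list of receptors of fat-cell hormones, with the insulin signalling genes Insr, Irs1 and Irs2 on it, had 8 tested genes. Of these, Cdh13, which binds adiponectin, rose by 1.139 ± 0.16, and Cmklr1, the chemerin receptor, fell by 2.12 ± 0.24. The list median was 0.10. Beside these groups, the fibroblast markers Dcn, Lum, Twist1 and Col3a1, 4 of 15, rose and 0 fell, with a median of 0.33.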

How the data were processed

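Gene expression was measured by RNA sequencing in 6 libraries. The authors deposited TPM per gene symbol. Per the submitters' processing notes the mm10 build was used, with StringTie 1.3.1c, HISAT2 2.0.5, cutadapt 1.14 and bcl2fastq. The gene annotation and the use of strand in counting are not given in the sources used here. The deposited TPM summed to 1000000 in the poly(A) libraries and to 937217 to 950531 in the rRNA-depleted ones. TPM keep no read numbers, so depth is unknown.

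Values were analysed as log2(TPM + 1), which understates changes of low genes, in R 4.3.3 with limma 3.58.1 (mean-variance trend, 2 residual and 3.22 prior degrees of freedom). Tested were 13332 genes with at least 1 TPM in at least 2 libraries. Tests were two-sided, with a threshold of 0.05 on the Benjamini-Hochberg adjusted p. Library method entered as a block because the labels tie the replicate number to it; deviations from group means of same-method libraries correlated at 0.664 to 0.854. The fit was tested on simulated data. Positions and overlaps came from GENCODE M21. The members and lists were chosen with earlier results of these data known. Named were all 9 members, every list gene past the threshold in a pairwise comparison and, where a list had none, its smallest p. Some genes that this rule names are not reported here. Of 10 complement gene symbols listed, 8 were in the table. The symbols C5 and Crry were not, and other symbols for these genes were not looked up. Settings tried were pseudocounts of 0.1 and 0.5, no filter, no block, rescaling with and without mitochondrially encoded genes, quantile normalization, no trend and each library left out.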

Additional observations from a re-analysis of the deposited data

How the results depend on the processing

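Under the 8 other settings all 144 comparable results of the 6 tested genes (fitted changes in 3 comparisons) kept their direction and none passed. With no filter, no block or no mean-variance trend the fitted change is the same by design. Its direction could not change there, only its p-value. Values that moved by over 1.5 times were those of Cd36 with a pseudocount of 0.1 (-1.22 in PD14 against PD2, -2.02 in PD8 against PD2 and 0.80 in PD14 against PD8) and, with quantile normalization, those of Fabp4 (0.10) and Lpin1 (0.22) in PD14 against PD2 and of Lpin1 (-0.12) in PD14 against PD8. Of 108 values with 1 library left out, 18 changed direction. Leaving out a library of the group outside a comparison cannot move its fitted change. Such values are among the 108 and could not change direction, so 18 of 108 understates how often the others did. A left-out library takes its group's gap between the methods out of the error, so any pass without 1 library rests on the other 2 groups. Without 1 library, the fitted changes ran as follows. For PD14 against PD2 they were -0.42 to 0.82 for Fabp4, -0.87 to 0.19 for Plin2, -0.30 to 1.01 for Lpin1 and -1.92 to 0.50 for Cd36. For PD8 against PD2 they were -0.13 to 1.11 for Fabp4, -0.75 to 0.31 for Plin2, -0.20 to 1.03 for Lpin1 and -2.34 to 0.077 for Cd36. For PD14 against PD8 they were -0.36 to 0.69 for Pparg, -0.66 to 0.0805 for Fabp4, -0.46 to 0.22 for Plin2, -0.72 to 0.60 for Lpin1 and -0.24 to 1.08 for Cd36. Members called were 0 to 3 in PD14 against PD2, 0 to 2 in PD8 against PD2, 0 to 2 in the F test, and 0 in PD14 against PD8 and in the difference of the steps. Genes called in PD14 against PD2 were 1490 as reported, 404 with no filter on TPM, 938 with no mean-variance trend, 0 with no replicate block, and 0 to 1804 without 1 library. In PD8 against PD2 they were 3 as reported, 21 and 17 with pseudocounts of 0.1 and 0.5, 0 with no filter, no replicate block, no trend or quantile normalization, and 0 to 641 without 1 library. In PD14 against PD8 they were 0 to 1 without 1 library. Pathway genes called in PD14 against PD2, counted under these settings after the data were seen, were 29 as reported, 14 with no filter, 0 with no replicate block and 0 to 36 without 1 library. The cause of these shifts was not tested. Quantile normalization moved the share of higher calls in PD14 against PD2 from 57.3% to 46.9%. Without depth, counting error of low values such as Cd36 in the rRNA-depleted libraries is unknown.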
